A study of Homo sapiens with 6 samples.

Results

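The eIF4A helicase family comprised 3 genes of the deposited splicing table, EIF4A1, EIF4A2 and EIF4A3, which were taken by gene symbol from 30275 symbols. They held 120 of the 721551 events in the table, 22 in EIF4A1, 53 in EIF4A2 and 45 in EIF4A3. An event is a cassette exon, a retained intron, or 1 of several alternative acceptors (3′ splice sites) or donors (5′ splice sites), with a percent of inclusion, retention or use in each library. The family was chosen by the measured inclusion percents of a noncoding exon of EIF4A2, already seen to differ between the groups in these libraries, so all EIF4A2 values below are a description and carry no test. The cells were SKNBE2, an established neuroblastoma line with amplified MYCN, grown in RPMI. The 3 Control libraries came from cells whose treatment label is Control, and no dose or time is given for them. The 3 DFMO libraries came from cells given 250 µM DFMO (difluoromethylornithine, which blocks ornithine decarboxylase and so the synthesis of polyamines) for 4 days. All 6 libraries share 1 cell line, and nothing in the labels says whether libraries of a group came from separate cultures, so their spread may be technical. The comparison asks what DFMO does to RNA processing of these genes.

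The eIF4A proteins are DEAD-box RNA helicases. EIF4A1 and EIF4A2 encode near-identical helicases of the cap-binding complex eIF4F, which unwind structure in the 5′ leader of an mRNA so that the small ribosomal subunit can load and scan. EIF4A3 encodes a nuclear paralog that clamps the exon junction complex onto spliced mRNA and takes part in nonsense-mediated decay, the pathway that degrades mRNAs whose stop codon lies well upstream of a splice junction. An exon that brings in such a stop codon lowers the amount of productive mRNA when it is included.

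The gene EIF4A2 lies on the plus strand of chromosome 3 (GRCh38, 186783205 to 186789900). Its regulated exon covers 186788310 to 186788420 and is 111 nt long. It lies inside the last intron of the coding transcript EIF4A2-201, between exon 10 (186787803 to 186787882) and exon 11, which starts at 186789125. Of the 27 EIF4A2 transcripts in GENCODE 29, the full form is an exon of EIF4A2-223, annotated as retained intron without coding sequence. A form that ends 4 nt earlier and is 107 nt long is exon 11 of 12 in EIF4A2-202, annotated for nonsense-mediated decay. There the reading frame meets a stop codon at 186788317 to 186788319, after 7 nt of the exon, and 97 nt remain up to the next splice junction. In EIF4A2-201 the stop codon lies in the last exon, 145 nt from its start to the end of the stop. The sequences below were read from GENCODE 29 transcripts by GRCh38 coordinates, on the plus strand and 5′ to 3′, and are shown because they carry the choice between both mRNAs. The first runs from 20 bases before the exon through its first 10 bases (chr3:186788290-186788319), with the stop codon in capitals. The second spans the exon's end (chr3:186788407-186788436), with the first 2 intronic bases after each of 3 listed donors in capitals. The last pair are spliced, 15 bases from the end of exon 10 and 15 from the next exon, and show the same 15 bases continuing either into the noncoding exon, with the stop codon in capitals, or straight into exon 11, in capitals.
acceptor side: agactttttaaaaaatacaggagtcgaTAG
donor side: taaagaGCgaGTcgGTatttatatttgttt
junction into the noncoding exon: aaactatattcacaggagtcgaTAGcagca
junction that skips it: aaactatattcacagAATTGGCAGAGGGGG

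**Figure D1:**
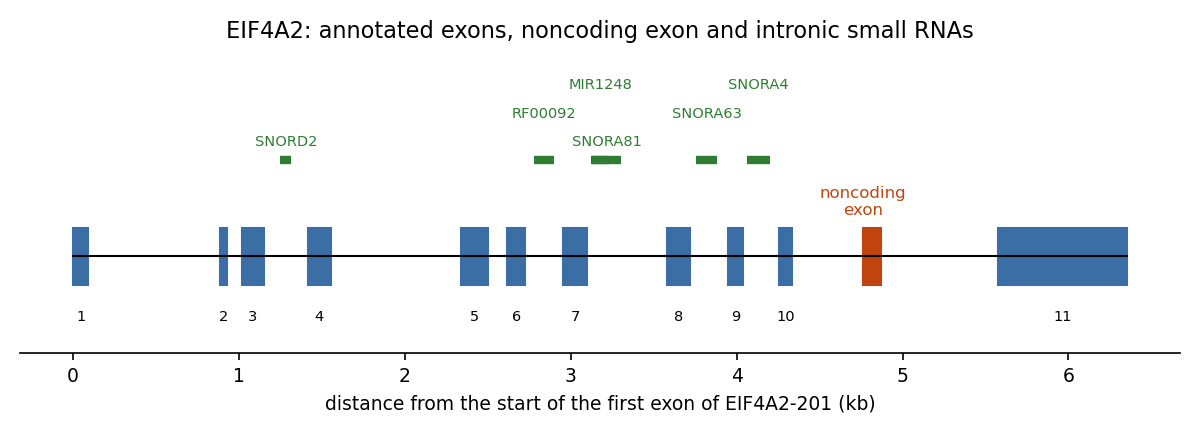
Map of EIF4A2 along the distance from the start of the first exon of EIF4A2-201, in kb. Blue boxes are the 11 exons of that coding transcript, the orange box is the 111-nt noncoding exon inside intron 10, and green bars are the 6 small RNA genes inside introns.

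Inclusion of the 111-nt exon was lower in every DFMO library than in every Control library. The deposited inclusion percent of the exon was 66.3%, 70.1% and 67.8% in the Control libraries and 33.2%, 35.3% and 31.8% in the DFMO libraries, so the groups were far apart. The means were 68.1% ± 1.91 (SD, n = 3) and 33.4% ± 1.75, a difference of -34.62 points. In the whole table, 56 of 7500 tested exons (0.747%) were called lower, from the contrast that also chose this gene, so nothing is read from that share. The junctions behind the percent differed between the groups to unequal extents. Junction reads into the exon numbered 650, 582 and 800 in Control and 636, 538 and 529 in DFMO, or 7.63 ± 0.128 and 6.33 ± 0.177 per 1000000 event reads of the library, a ratio of 0.829. Junction reads from exon 10 straight to exon 11 numbered 232, 185 and 268 in Control and 884, 712 and 688 in DFMO, or 2.57 ± 0.175 and 8.47 ± 0.439 per 1000000, a ratio of 3.296. The larger difference in reads was thus at the junction that yields the coding mRNA. All reads that leave exon 10 by either junction came to 10.2 ± 0.280 per 1000000 in Control and 14.8 ± 0.588 in DFMO, 1.451 times as many. For each of the 3 quantities the groups did not overlap.

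**Figure D2:**
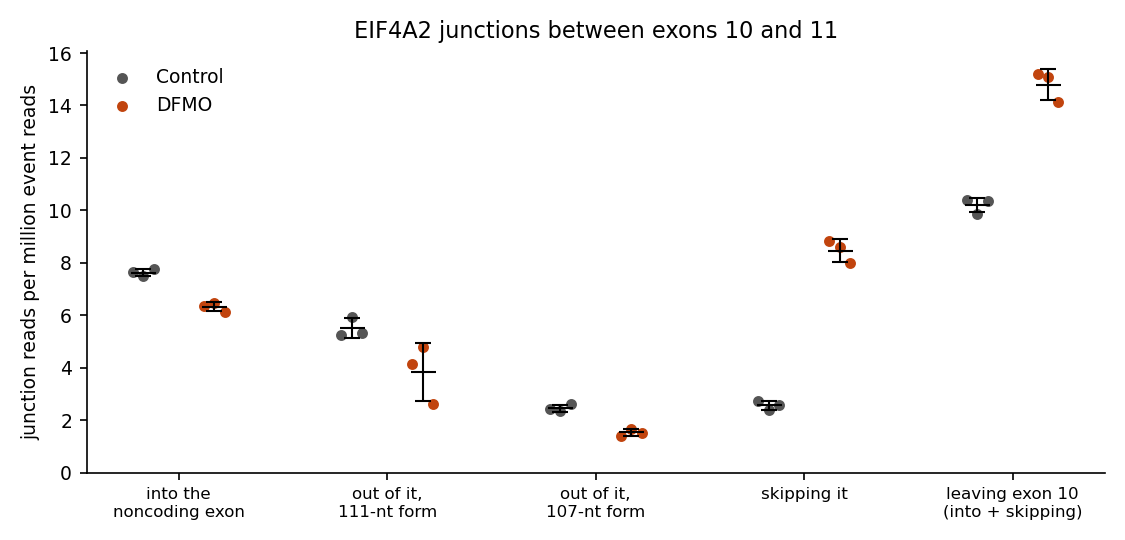
Reads of the junctions between exons 10 and 11 of EIF4A2, per 1000000 event reads of each library (vertical axis), for the junction named on the horizontal axis. Points are libraries, grey for Control and orange for DFMO, and bars are the mean ± SD of 3. Skipping reads sit near 2.57 in Control and 8.47 in DFMO, while reads into the exon sit near 7.63 and 6.33.

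The exon ended at more than 1 donor. The donor at 186788420, which gives the 111-nt form and is followed by the bases GT, took 68.1%, 71.4% and 67.0% of the donor reads in Control and 73.8%, 73.2% and 63.0% in DFMO. The donor 4 nt upstream, also followed by GT and giving the 107-nt form with an annotated stop codon, took 31.3%, 28.4% and 32.8% in Control and 25.3%, 25.6% and 36.8% in DFMO. The groups overlapped for both donors, because the third DFMO library lay on the other side of the Control range from the remaining DFMO libraries. A donor 8 nt upstream of the main one, followed by GC and giving 103 nt, took 0.15% to 1.11%, and a donor listed 23 nt downstream had no read in any library. Both main donors had fewer reads per 1000000 event reads in DFMO than in Control: the 111-nt form had 446, 462 and 552 junction reads in Control and 414, 397 and 226 in DFMO, and the 107-nt form had about 205, 184 and 270 in Control and 142, 139 and 132 in DFMO. Per 1000000 event reads the ratios were 0.698 and 0.626. In the third DFMO library, reads into the exon exceeded reads out of it by all donors 1.474 times, against 0.900 to 1.134 in the other libraries. The deposited percent, 68.05% in Control and 33.43% in DFMO, counts reads out of the exon at its listed end only. Recomputed from counted junction reads over all donors, the exon came to 75.3% ± 1.55 in Control and 40.9% ± 2.01 in DFMO, a difference of -34.36 points. Counted reads of the junction into the exon alone gave 74.8% and 42.8%, and those out of it at its listed end alone gave 68.2% and 30.8%. The recomputed percent thus differs from the deposited one in the kind of reads as well as in the donors. The part of each was not tested. On the acceptor side, a site 18 nt upstream of the exon's start took 0% to 0.93%. No other exon event of EIF4A2 lies between exons 10 and 11. A donor 69 nt inside the last intron, downstream of exon 10, took at most 0.09%.

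The 53 EIF4A2 events gave 51 with a coverage score of LOW or better in all 6 libraries. Of these, 14 were at 0% in all libraries, 6 at 100%, and 6 had a mean between 5% and 95%, the range needed to enter the fit. Those 6 were the noncoding exon, its 2 main donors, another exon and a pair of tandem acceptors. The other exon is exon 4 of EIF4A2-201, 140 nt long (186784962 to 186785101). Transcripts EIF4A2-203, EIF4A2-204 and EIF4A2-207 skip it, are annotated for nonsense-mediated decay and have their stop codon at 186785963 to 186785965 in the following exon. Its deposited inclusion percent was 69.2%, 74.6% and 62.4% in Control and 71.0%, 72.4% and 78.9% in DFMO, 68.7% ± 6.12 and 74.1% ± 4.24, and the groups overlapped. Its junction reads were uneven, with 2.122 to 3.231 times as many reads out of it as into it in each library. From the junction into it alone the exon stood at 29.2% ± 3.43 in Control and 33.8% ± 5.45 in DFMO, and from the junction out of it alone at 51.1% ± 9.18 and 58.4% ± 5.37. Both lie below the deposited percent in each group, and the reason was not tested. Reads that skip it numbered 165, 166 and 241 in Control and 368, 295 and 254 in DFMO. Thus both junctions of inclusion (1.955 and 2.06 times) and the junction of skipping (1.588 times) had more reads per 1000000 in DFMO, unlike at the noncoding exon.

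The tandem acceptors open exon 2 and stand 3 nt apart, so that they add or leave out 1 codon. The run below covers chr3:186784411-186784440 on the plus strand, with the bases that the downstream site leaves out in capitals.
tandem acceptors: ctgcagtattcttgtcagCAGagaacatgg
The downstream site at 186784432, used by EIF4A2-201, took 71.8%, 75.9% and 73.1% in Control and 69.2%, 68.2% and 76.4% in DFMO. The upstream site took the rest, 26.4% ± 2.07 and 28.7% ± 4.47, and the groups overlapped. The other scored EIF4A2 exons were close to constitutive. The 133-nt exon 3, the 169-nt exon 5 and the 80-nt exon 10 stood above 99% in all libraries, the 46-nt exon 2 at 100%, and the 90-nt exon 9 ranged from 97.4% to 98.7%. Exon 9 stood at 97.37%, 98.09% and 97.71% in Control and 98.42%, 98.68% and 98.25% in DFMO. An acceptor 16 nt upstream of it, the one EIF4A2-204 uses, took 1.64%, 1.95% and 4.23% in Control and 1.02%, 1.49% and 1.0% in DFMO, a low level of use. The groups did not overlap at either event. The share of all exons or acceptors free of overlap was not counted, so nothing is read from this. A donor 36 nt downstream of exon 2 took 1.75%, 1.94% and 3.10% in Control and 1.96%, 1.65% and 1.5% in DFMO.

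**Figure D3:**
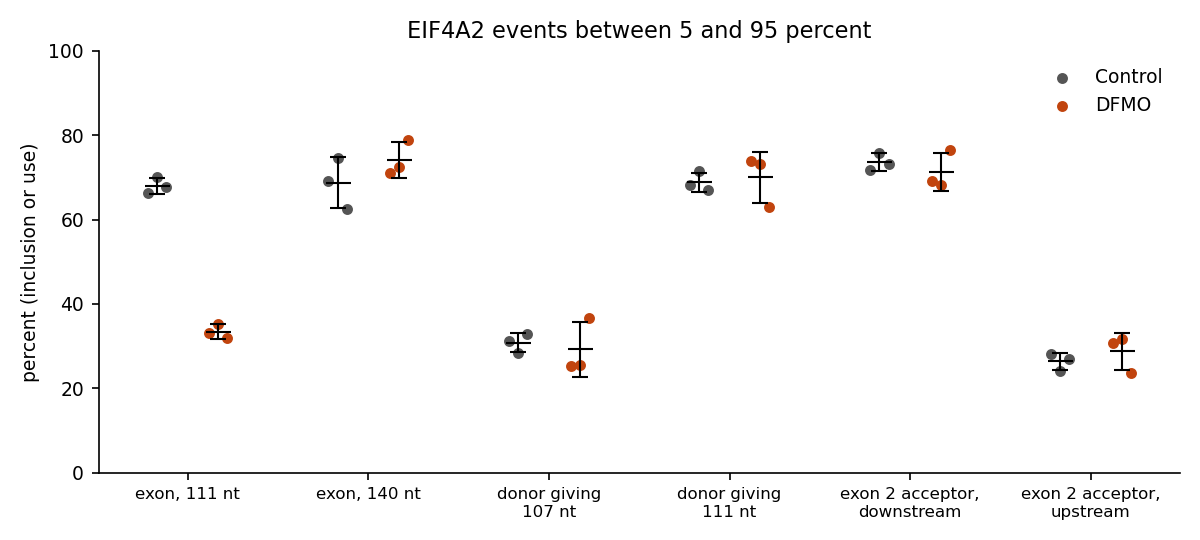
Percent of inclusion (exons) or use (donors and acceptors) on the vertical axis for the 6 EIF4A2 events with a mean between 5% and 95%. Points are libraries, grey for Control and orange for DFMO, and bars are the mean ± SD of 3. The 111-nt exon is the one event whose groups stand apart, near 68.1% and 33.4%.

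The 10 introns of EIF4A2 were nearly all spliced, and introns 1 to 9 gave a measure of the gene's spliced RNA that does not count the noncoding exon. Retention ranged from 0.15% to 7.73% over introns and libraries. The mean over introns was 2.12%, 2.17% and 2.67% in Control and 1.74%, 1.44% and 1.23% in DFMO. It was lower in DFMO for 8 introns and higher for 2. In 4 introns, numbers 2, 4, 8 and 10, the groups did not overlap, each time with DFMO lower, where 1.8% of 88789 scored introns of the table were lower without overlap. Of these 4, only intron 4 had balanced reads at both ends in all libraries (deposited p of at least 0.05). Intron 10, the 1242-nt intron that holds the noncoding exon, had the highest retention, 5.64%, 7.73% and 6.30% in Control and 3.31%, 3.45% and 3.01% in DFMO. Its percent is taken against spliced reads of the junction from exon 10 to exon 11. Skipping reads of that junction entered the percent that chose the gene, so the difference in retention is not separate from theirs. The values are not the same reads. The intron event had 553.5, 462.4 and 658.7 spliced reads in Control and 2090.6, 1707.1 and 1737.0 in DFMO. Counted skipping reads were 232, 185 and 268 in Control and 884, 712 and 688 in DFMO, and the reason was not tested. Without intron 10 the mean retention was 1.85% ± 0.370 in Control and 1.27% ± 0.274 in DFMO, and the groups overlapped. Intron 2, only 86 nt long, was retained at 4.93% ± 1.0 in Control and 2.37% ± 0.510 in DFMO. Intron 8, which holds SNORA63, a guide RNA for pseudouridylation, was retained at 2.43% ± 0.548 and 1.18% ± 0.215. Only 4 of the 10 introns were balanced in that way, and over those the mean was 0.884% ± 0.145 in Control and 0.630% ± 0.134 in DFMO, with overlap. The introns that host small RNAs are numbers 3 (SNORD2), 6 (RF00092), 7 (SNORA81 and MIR1248), 8 (SNORA63) and 9 (SNORA4). Intron reads of such hosts can come from the small RNA or its precursor, which was not tested.

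**Figure D4:**
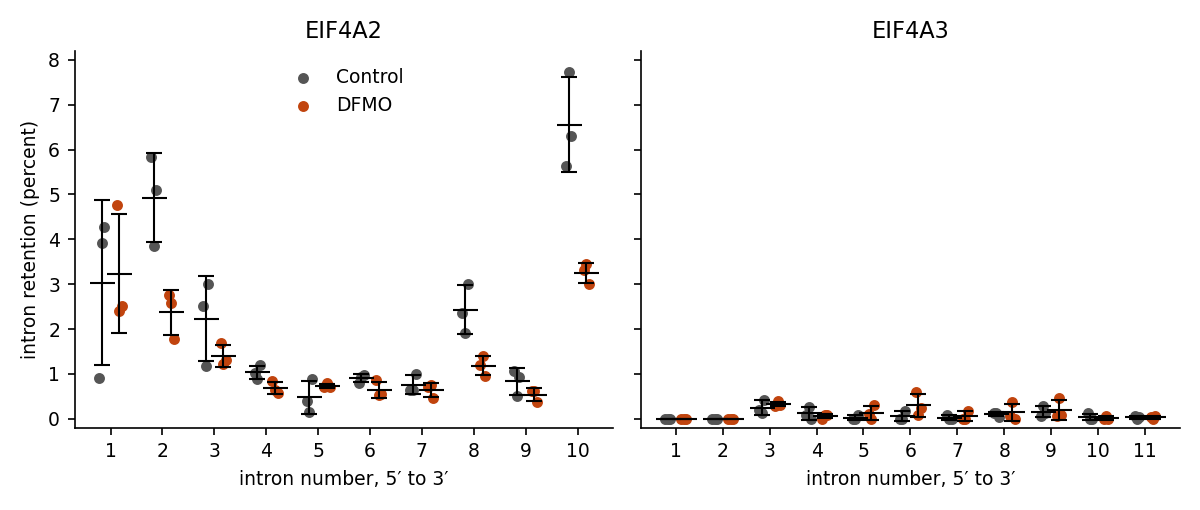
Intron retention in percent (vertical axis) for each intron of EIF4A2 (left) and EIF4A3 (right), numbered 5′ to 3′. Points are libraries, grey for Control and orange for DFMO, and bars are the mean ± SD of 3. Intron 10 of EIF4A2 sits near 6.56% in Control and 3.26% in DFMO, while no EIF4A3 value exceeds 0.59%.

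Spliced reads were more numerous in DFMO at every EIF4A2 intron. These reads are the fractional values of the intron events and need not equal counted junction reads, as seen at intron 10. They averaged 9.73, 9.64 and 9.21 per intron and 1000000 event reads in Control and 19.1, 18.7 and 18.6 in DFMO. The DFMO mean was 1.974 times the Control mean and the groups did not overlap. Introns 1 to 9 had ratios from 1.73 to 1.954, a narrow band along the gene, and intron 10 had 3.271. Without intron 10 the means were 9.89 ± 0.312 and 18.6 ± 0.260, a ratio of 1.883. The groups did not overlap at any of the 10 introns, where 13.7% of the table's scored introns were higher in DFMO without overlap. The median ratio over those 88789 introns was 0.979, and 95% of them lay below 1.396. The first intron had the fewest spliced reads, 1.19 ± 0.082 per 1000000 in Control and 2.06 ± 0.049 in DFMO, and intron 9 the most in Control, 14.97 ± 1.33. The same picture came from exon events. A junction-read level was computed as the mean over a gene's exon events of log2(1 + event reads per 1000000), and for EIF4A2 it was 3.41, 3.52 and 3.42 in Control and 4.14, 4.16 and 4.14 in DFMO over 7 events. The difference of 0.70 (SE 0.033) is 1.626-fold on that scale and stood in place 8 from the top among 9232 genes. These are bulk libraries, so a change in RNA per cell and a change in the make-up of the cells cannot be told apart.

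**Figure D5:**
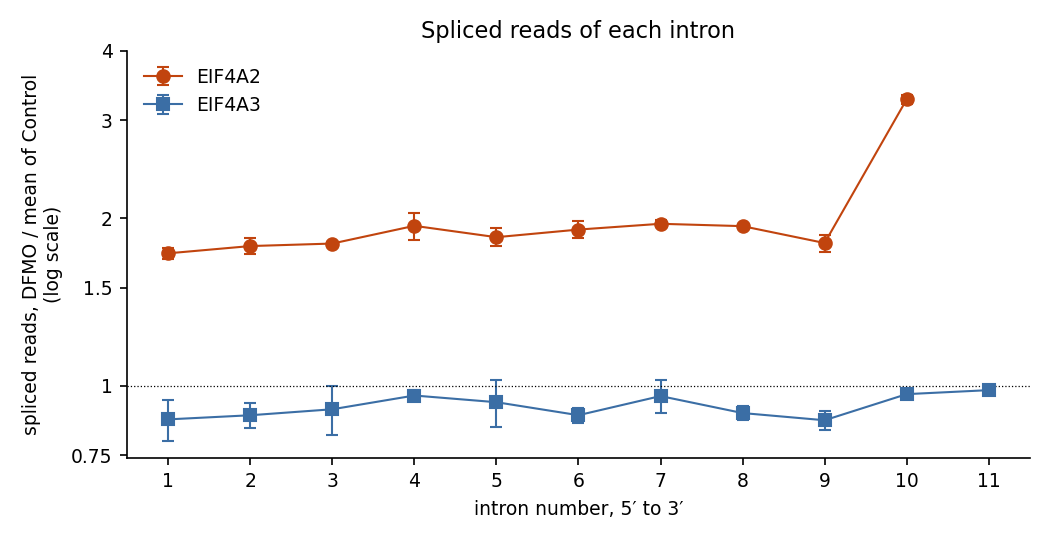
Spliced reads of each intron in DFMO relative to the Control mean (vertical axis, log scale), by intron number from 5′ to 3′. Points are the mean over 3 DFMO libraries and bars their SD, orange circles for EIF4A2 and blue squares for EIF4A3. EIF4A2 introns 1 to 9 lie between 1.73 and 1.954, intron 10 at 3.271, and EIF4A3 introns between 0.867 and 0.982.

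EIF4A3 (minus strand of chromosome 17, 80135214 to 80147183), the helicase of the exon junction complex, had no event with intermediate use in these cells. All 45 of its events were scored in all libraries, with at least 277 reads each, and none had a mean between 5% and 95%. In total 14 were at 0% and 11 at 100% in all libraries, and the remaining 20 stayed within 2 points of either end. The 10 exons used stood at 99.7% or more in each library. Its most used alternative site, an acceptor 90 nt inside the 108-nt exon (80136228 to 80136335), reached 1.28% in 1 Control library and 0.48% and 0.55% in DFMO libraries. With the filter on the mean percent removed, limma passed none of the 45 events at adjusted p below 0.05, and none had an unadjusted p below 0.05. The events at 0% or 100% in all libraries hold no difference to find, and their odds follow read depth. The remaining 20 leave little room for a difference, and the 2 choices of a site pair mirror each other. The 45 are thus not separate tests, and nothing is read from the lack of calls. In the same limma fit the 2 scored EIF4A1 events, the mirrored choices of 1 pair, differ by 0 points. Both had an unadjusted p below 0.05 (smallest adjusted p = 0.115). Retention over its 11 introns, the first of which is 2548 nt long, averaged 0.068%, 0.074% and 0.084% in Control and 0.106%, 0.134% and 0.115% in DFMO. The DFMO libraries were higher without overlap, but the exact permutation test (two-sided) gave p = 0.1, the smallest that 3 against 3 can give, and no single intron was free of overlap. These means of 0.075% and 0.119% stand beside 2.32% and 1.47% in EIF4A2.

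The amount of spliced EIF4A3 RNA was slightly lower in DFMO. Spliced reads per intron were 7.89, 7.80 and 7.95 per 1000000 in Control and 7.25, 7.23 and 7.26 in DFMO, a ratio of 0.92 without overlap (exact permutation p = 0.1, two-sided). The ratio lay between 0.867 and 0.982 at each of the 11 introns, and the groups were free of overlap at 4 of them, where 32.2% of scored introns in the table were free of overlap in either direction. The junction-read level over 11 exon events was 3.82, 3.81 and 3.86 in Control and 3.69, 3.69 and 3.68 in DFMO. It fell by 0.14 on the log2 scale (SE 0.026, limma, adjusted p = 2.24e-03), a ratio of 0.905. A call at this threshold was common, since 45.5% of 9232 genes passed it, 20.5% higher and 24.9% lower, while 0.347% passed with a change of at least 1.5-fold. The EIF4A3 difference is far below that size.

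EIF4A1 (plus strand of chromosome 17, 7572706 to 7579005), a helicase of cap-dependent translation, could hardly be read from this table. It has no exon event, all 10 of its introns are without a percent in any library, and only 2 of its 22 events, the 2 choices of 1 acceptor pair, were scored in all libraries. GENCODE 29 lists 13 processed pseudogenes of EIF4A1, against 5 of EIF4A2 and 1 of EIF4A3, and a further 7 events carry the symbol of the read-through gene SENP3-EIF4A1 and were not counted as members. Whether reads shared with these copies left the events without values was not tested. The scored acceptor pair opens the exon that ends at 7574308, and the site 6 nt upstream took 100% of the reads in all libraries. Its reads numbered 41, 57 and 67 in Control and 119, 78 and 99 in DFMO, 0.622 ± 0.128 and 1.09 ± 0.134 per 1000000, a ratio of 1.758 without overlap (exact permutation p = 0.1, two-sided). A donor 45 nt inside the intron after the exon that ends at 7577916 had no read, with 11 to 36 reads per library at the normal donor.

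A donor pair of EIF4A1 had reads that differed more. It ends an alternative upstream exon that starts at 7573433, with donors at 7573533 and, 14 nt further, at 7573547. The pair had 13, 15 and 14 reads in Control and 60, 43 and 46 in DFMO, 0.161 ± 0.030 and 0.551 ± 0.043 per 1000000, 3.43 times as many without overlap (exact permutation p = 0.1, two-sided). The shorter form had 0 of 13, 0 of 15 and 0 of 14 reads in Control and 8 of 60, 4 of 43 and 8 of 46 in DFMO. That is 13.3% (exact Clopper-Pearson interval 5.94% to 24.6%), 9.30% (2.59% to 22.1%) and 17.4% (7.82% to 31.4%) in DFMO. By the same interval the counts of 0 allow up to 24.7%, 21.8% and 23.2% in the Control libraries, so the intervals of single libraries overlap at this depth. The pair had the coverage score in only 3 of the 6 libraries, so its use was not tested. Summed over libraries, the shorter form had 0 of 42 reads in Control, which allows up to 8.41%, and 20 of 149 in DFMO, 13.4% (8.40% to 19.97%). The summed intervals meet only at their edges, and whether intervals meet is no test of a difference. Reads are not independent molecules, so these intervals and limits cover counting error only. Other reads into the same acceptor numbered 28, 42 and 53 in Control and 59, 35 and 53 in DFMO, and overlapped.

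Within the family, the balance between EIF4A2 and EIF4A3 differed between the groups. Spliced reads are the fractional values of the intron events, and within EIF4A2 they ran from 1.19 to 14.97 per 1000000 over introns in Control. The share is thus compared between groups and is not read as relative amounts of the RNAs. EIF4A2 made up 55.2%, 55.3% and 53.7% of the spliced reads per intron of both genes in Control and 72.5%, 72.1% and 71.9% in DFMO. As a ratio, EIF4A2 stood at 1.21 ± 0.043 times EIF4A3 in Control and 2.59 ± 0.038 times in DFMO. EIF4A1 has no intron value and is missing from this share. The higher share followed from both genes, with DFMO at 1.974 times Control for EIF4A2 and 0.92 times for EIF4A3. The EIF4A2 mean includes intron 10, and skipping reads of its junction entered the percent that chose the gene. Without intron 10 the EIF4A2 ratio was 1.883, and the share was not recomputed without it.

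The partners of the helicases were read from lists of 50 genes, all in the table, of which 45 had a level. They held 103 tested events in 32 genes, of which limma called 1, meaning adjusted p under 0.05 together with 10 points or more. Among all 18209 tested events 2.77% were called. The call was a 120-nt exon of ACIN1 (chromosome 14, 23089982 to 23090101), which encodes acinus, a member of the ASAP complex that binds the exon junction complex. It was included in 15.8%, 21.1% and 21.8% in Control and 50.3%, 47.4% and 49.8% in DFMO, and rose by 29.6 points (adjusted p = 5.41e-04 with limma). This call was lost without a variance trend (adjusted p = 0.0696). No event was called among 36 of the cap-binding list and 47 of the decay list, where limma gave 7 and 7 at an unadjusted p below 0.05. Among all 18209 tested events 3302 were below that unadjusted p, so no excess is read from the 7 and 7. The median difference over the 103 events was 0.47 points, beside 0.57 over all tested events. Events that passed on p with a smaller difference were an intron of ACIN1, 2 introns of DDX39B, a pair of donors of EIF4B and an exon of SMG1. None of these kept an adjusted p below 0.05 without a variance trend. A DDX39B intron lost it in 9 of 12 alternatives, the SMG1 exon in 6 of 10 and the ACIN1 intron in 5 of 12.

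In the cap-binding list, 6 of 17 measured genes rose in level, 5 fell and 6 did not pass. The list's median was 0.02 on the log2 scale, beside -0.01 over all genes. EIF4G2, a scaffold like eIF4G that does not bind the cap protein eIF4E and uses eIF4A for initiation on selected mRNAs, had the lowest difference of the list. It fell by 0.61 on the log2 scale (SE 0.022, limma, adjusted p = 3.16e-06), from 5.48 ± 0.019 to 4.86 ± 0.013. EIF4EBP2, a repressor of eIF4E, fell by 0.26 from 1 exon event, and EIF4G1, the main scaffold that holds eIF4A at the cap, fell by 0.22. EIF4B, which stimulates the helicase activity of eIF4A, rose by 0.31 from 1 exon event, and by 0.16 when read from intron events. EIF4E3, a cap-binding eIF4E relative, rose by 0.29, and by 0.58 with 0.1 in place of 1 added before the log2 or 0.47 from exon events above 95%. PAIP2, a repressor of the poly(A)-binding protein, rose by 0.24. PDCD4, the protein that binds eIF4A and inhibits it, differed by 0.07 and did not pass (adjusted p = 0.108 with limma).

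In the exon junction list, 4 of 12 measured genes rose, 3 fell and 5 did not pass, with a median of 0.03. DDX39B, the helicase UAP56 that prepares spliced mRNA for export, rose by 0.34 (SE 0.028), from 3.86 ± 0.037 to 4.20 ± 0.022. MAGOH, the core subunit that locks EIF4A3 onto RNA, rose by 0.25 and PNN, pinin, by 0.23, while the export adaptor ALYREF fell by 0.20, the export receptor NXF1 by 0.19 and ACIN1 by 0.15. In the decay list, 6 of 16 measured genes rose, 2 fell and 8 did not pass, with a median of 0.05. NCBP2 of the nuclear cap-binding complex rose by 0.26, UPF3B, which links the exon junction complex to the decay machinery, by 0.22, and SMG9 by 0.16. The release factors ETF1 and GSPT1 fell by 0.19 and 0.09. UPF1, the central helicase of decay, differed by 0.01 and did not pass (adjusted p = 0.841 with limma). Over the 3 lists 16 genes rose and 10 fell, 26 of 45, beside 45.5% of all genes.

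The EIF4A2 exon's percents were set beside those of the 7500 tested exons. The 5 exons of other genes with the smallest mean absolute difference over the 6 libraries were in R3HDM1 (5.57 points away), SNX5 (7.41), SUGP2 (8.39), FAM208B (8.62) and TMUB2 (8.76). The R3HDM1 exon, 255 nt on chromosome 2 (135641536 to 135641790), was at 60.0%, 57.8% and 71.3% in Control and 37.1%, 36.8% and 37.6% in DFMO. The comparison used the EIF4A2 percents that chose the gene, so nothing is read from how near the 5 exons stand.

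Event reads per library ranged from 77648922 to 103250467. The labelled neuroblast identity was checked against 10 markers of noradrenergic neuroblastoma, all with a level, among them PHOX2A, HAND2, GATA3, DBH and MYCN. Summed reads of these markers ran from 1618 to 1654 per 1000000 in Control and from 1852 to 1860 in DFMO. Of 10 mesenchymal markers 3 had a level, THY1, TWIST1 and VIM, with sums of 84.1 to 86.7 in Control and 86.3 to 91.5 in DFMO. None of 5 blood and 4 epithelial markers had a level, with sums of at most 0.106 and 1.06 per 1000000. In these sums LYZ, KRT8 and KRT18 stood at 0. Missing reads were counted as 0, so such a value need not mean that the gene is silent. CHGA, chromogranin A of secretory granules, alone reached 1026 per 1000000 in its highest library and made up the largest part of the noradrenergic sum. By level 6 of the 10 noradrenergic markers rose, 3 did not pass and DDC, an enzyme of catecholamine synthesis, fell by 0.14 on the log2 scale (limma, adjusted p = 0.0031). Over all genes 20.5% were higher and 24.9% lower at this threshold. Of the 3 mesenchymal markers with a level, THY1 and TWIST1 also rose, by 0.10 and 0.28, and VIM did not pass. The part of these markers in the higher EIF4A2 reads was not tested.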

How the data were processed

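The RNA of 6 SKNBE2 libraries was sequenced as stranded mRNA, with single reads of 100 bases, per the labels. The authors deposited 1 table of splicing events on GRCh38, per the submitters' processing notes. It gives a percent per event and library, and a quality text from which coverage scores, junction reads and the reads behind each percent were taken. The tool is not given in the sources used here, and the fields of that text were read by the layout of the vast-tools format, which no label names. Recomputed from the reads behind each percent, 100% of 2858409 percents lay within 0.5 points of the deposited ones. Those reads can be fractional, as a read total divided by the percent would be. The match is therefore no test of how the fields were read. Counted junction reads need not give the deposited percent. Event reads of a library are the sum over its events, and rates are scaled to 1000000 of these.

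An event was tested where all 6 libraries had 10 or more reads and a coverage score above the lowest class (LOW, OK or SOK), and the mean was 5% to 95%. The test was limma 3.58.1 (R 4.3.3) on log2 odds with 0.5 added, with a variance trend on the expected counting variance, robust, and Benjamini-Hochberg adjustment within each event class. A call needed an adjusted p below 0.05 and 10 points. Levels used limma over 9232 genes, with 1 added before the log2. Single values were tested by an exact permutation test. On simulated data, 98% of 200 exons changed by 30 points and 98% of 200 genes changed 1.5-fold were recovered, with 1 and 15 false calls. The simulated noise was set alike for all events and alike for all genes, so these rates need not hold for the real libraries.

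The members, partner lists and rules were chosen with earlier results of these data known. Named were all tested member events, events around the noncoding exon, called partner events, the 3 highest and 3 lowest partner levels past the threshold, and the 5 most alike exons. PDCD4 and UPF1 were named outside the rule, after their values were seen. EIF4E, EIF4EBP3, EIF4H, PAIP1 and RBM8A had no exon event with a score in all libraries. Some markers of the noradrenergic list are not reported here. Alternatives were other offsets, scales, filters and scalings, each library left out, and the replicate number as a block. Ways to count the junctions of an exon were added after seeing the data. Same-numbered libraries did not deviate together over tested exons (correlations -0.02, -0.002 and -0.007), so the numbers were not taken as pairs. No library was a copy of another: pairs shared 0.56% to 0.72% of the percents between 5% and 95%.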

Additional observations from a re-analysis of the deposited data

How the results depend on the processing

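The lower inclusion of the EIF4A2 noncoding exon in DFMO kept its direction under each alternative run: -35.55 to -33.6 points with any library left out, -32.04 from the junction into the exon only and -37.36 from the junction out of it at its listed end only, the last 2 by construction from other reads. With the replicate number as a block it was -34.62 points, as without. The differences in share of its 2 main donors changed sign without the first or the second DFMO library: the 107-nt donor went from -1.59 points to 0.37 and 0.20, and the 111-nt donor from 1.17 to -0.73 and -0.46. With each library left out in turn they ranged from -5.36 to 0.37 and from -0.73 to 4.70. The EIF4A2 level difference moved from 0.70 to 0.86 from intron events, 0.76 with 0.1 added and 0.78 from exon events above 95%. The EIF4A3 level passed in all 11 alternatives, from -0.16 to -0.11. Called partner events numbered 1, but 0 without a variance trend and 1 to 3 with a library left out (EIF4B donors without the first Control or first DFMO library, DDX39B without the third Control library, in addition to ACIN1). Without a variance trend, calls over the table went from 259, 140, 47 and 58 (exons, introns, acceptors, donors) to 14, 0, 0 and 0, and without the mean-percent filter introns gave 87 and acceptors 28, and on the percent scale donors gave 38. With a library left out, calls were as low as 158 exons, 87 introns, 16 acceptors and 34 donors. Without a variance trend none of the 7 partner events named kept an adjusted p below 0.05 (0.0696 to 0.422), and without the mean-percent filter an ACIN1 intron, a DDX39B intron and the SMG1 exon lost it (0.0933, 0.181 and 0.112). The replicate block took it from that DDX39B intron only (0.0531). With 0.1 added UPF3B rose by 0.33 in place of 0.22. GSPT1 lost its call in 3 of 11 alternatives. Totals of the named EIF4A1 events, at 11 to 119 reads, are limited by depth.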
